A study of Mus musculus with 9 samples.

Results

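The genes described here are those of fibroblast growth factor (FGF) signalling: every gene named Fgf followed by a number, the receptors Fgfr1 to Fgfr4, the feedback inhibitors Spry1 to Spry4, Spred1 to Spred3, Dusp4 and Dusp6, and the ETS transcription factors Etv4 and Etv5. The rule uses names alone, and the genes number 37 of the 33495 genes in the count table: 22 Fgf genes, 4 receptors, 9 feedback inhibitors and 2 ETS factors. RNA was sequenced from RF8, a line of mouse embryonic stem (ES) cells, transfected with enhanced green fluorescent protein (EGFP), with wild-type Nanog (WT), or with Nanog carrying the L122A change (L122A). Nanog is a homeodomain transcription factor of pluripotent cells. The routine medium of all 3 transfectants was KO-DMEM with 15% FCS, 2 µg of puromycin and 1000 units per ml of the cytokine LIF (leukaemia inhibitory factor), which helps ES cells to self-renew. The cells were sampled in this medium (LIF), after LIF was left out (no-LIF), or after LIF was replaced by retinoic acid (RA) at 5 µM, a signal that drives differentiation. The labels do not say how long each culture lasted, whether a transfectant was 1 clone or a pool, what promoter drove the transgene, or which species' Nanog was used. Each combination of transfectant and culture has 1 library, 9 in all, so no combination has a replicate. In the count table the columns of the LIF culture carry a tag that no label explains, and each was taken as the LIF library of its transfectant because the other cultures were matched by name. The columns tagged L122 were taken as L122A.

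FGFs are secreted ligands that bind receptor tyrosine kinases together with heparan sulphate and pass a signal through FRS2, GRB2, SOS and RAS to the ERK kinases. ERK activity induces Etv4 and Etv5, and it induces its own inhibitors: the Sprouty and Spred proteins, which restrain RAS and RAF, and the phosphatases DUSP4 and DUSP6, which remove the activating phosphates from ERK. In mouse ES cells FGF4 is the main autocrine ligand, and ERK signalling from it is known to prepare the cells to leave self-renewal.

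Total counts lay between 24166395 and 28714988 per library. In CPM, the count relative to library size after scaling by trimmed-mean (TMM) factors, Nanog stood at 385, 291 and 0.873 in the EGFP libraries with LIF, without LIF and with RA, at 223, 168 and 195 in the WT libraries, and at 240, 130 and 259 in the L122A libraries. Its counts were therefore not above those of EGFP in the Nanog transfectants except with RA, and they do not separate the cells' own gene from the transgene. The 5 ES cell markers Pou5f1, Sox2, Zfp42, Esrrb and Tfcp2l1 were detected in every library, and their summed level was 1156, 284 and 13.4 CPM in EGFP. In the same culture order it was 1739, 993 and 59.8 CPM for WT and 1659, 1747 and 469 CPM for L122A. The RA library of L122A thus kept a higher level of these markers than the other RA libraries. Of the 37 FGF genes, 24 reached at least 1 CPM in at least 3 libraries and were tested among 13996 genes. The other 13 were left out of the main fit, which uses this filter, and 2 of them, Fgf6 and Spry3, had a count of 0 in every library.

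Promoter sequence was available for 26 of the 37 genes from RefSeq (GRCm38.p6, a later build than the mm9 of the count table). The 250 bases upstream of the start site are given, 5′ to 3′ in the direction of transcription, for 4 genes on which the results below turn. Fgf4 and Fgf3 are neighbours with very different levels, and Spry1 and Spry2 are Sprouty genes that moved in opposite directions with RA. Capitals mark CpG dinucleotides.
Fgf4, chr7:144861136-144861385, plus strand: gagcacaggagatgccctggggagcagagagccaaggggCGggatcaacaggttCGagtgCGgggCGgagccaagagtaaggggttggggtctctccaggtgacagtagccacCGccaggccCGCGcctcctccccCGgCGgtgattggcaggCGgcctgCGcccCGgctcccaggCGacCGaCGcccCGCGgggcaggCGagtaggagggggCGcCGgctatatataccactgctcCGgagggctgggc
Fgf3, chr7:144838362-144838611, plus strand: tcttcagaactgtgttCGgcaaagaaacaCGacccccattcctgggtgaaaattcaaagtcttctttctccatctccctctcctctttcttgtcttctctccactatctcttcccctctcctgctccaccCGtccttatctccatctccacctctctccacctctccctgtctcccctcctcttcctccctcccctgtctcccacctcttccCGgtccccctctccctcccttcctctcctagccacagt
Spry1, chr3:37639697-37639946, plus strand: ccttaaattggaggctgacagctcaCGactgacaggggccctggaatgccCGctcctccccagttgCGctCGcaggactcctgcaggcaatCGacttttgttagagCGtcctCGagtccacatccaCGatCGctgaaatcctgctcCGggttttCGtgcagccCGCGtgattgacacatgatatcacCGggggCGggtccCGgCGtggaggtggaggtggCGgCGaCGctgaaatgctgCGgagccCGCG
Spry2, chr14:105896820-105897069, minus strand: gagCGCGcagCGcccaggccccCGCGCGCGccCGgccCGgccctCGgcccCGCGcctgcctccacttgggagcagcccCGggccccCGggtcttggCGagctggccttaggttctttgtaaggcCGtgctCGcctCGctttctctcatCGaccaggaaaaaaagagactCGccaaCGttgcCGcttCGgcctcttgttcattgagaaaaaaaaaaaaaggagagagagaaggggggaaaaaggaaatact

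The Fgf4 window holds 21 CpG and is 71.2% G and C, whereas that of Fgf3 holds 4 CpG at 55.2%. The windows of Spry1 and Spry2 hold 23 CpG each and are both 62.4% G and C, so this measure does not separate these 2 genes. Over all 32851 windows of 250 bases in the table the median was 6 CpG and 52.4% G and C. Taking the richest window of each of the 26 genes, the CpG count ran from 2 (Fgfr2) to 37 (Fgf18). For some windows, that of Fgfr2 among them, the bases just after the start were not found in a GENCODE transcript of the gene. The letters GGAAGT, the core bound by many ETS factors, were searched on both strands and found in 3 of the 34 windows of FGF genes (Etv5, Fgf13 and Spred2), against 19.7% of all windows. AGGTCA, the core unit bound by nuclear receptors such as the RA receptors, was found in 3 (Fgf12, Fgf6 and Fgf7), against 14.0% of all. TATAAA was found in 1 (Fgf21; 12.4% of all) and the octamer ATGCAAAT in 0 (1.60% of all). The Etv5 and Fgf6 windows with a motif were also among those whose start was not found in a transcript. No FGF gene held more than 1 of these motifs, and none of the 4 sequences printed above holds any of them.

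**Figure D1:**
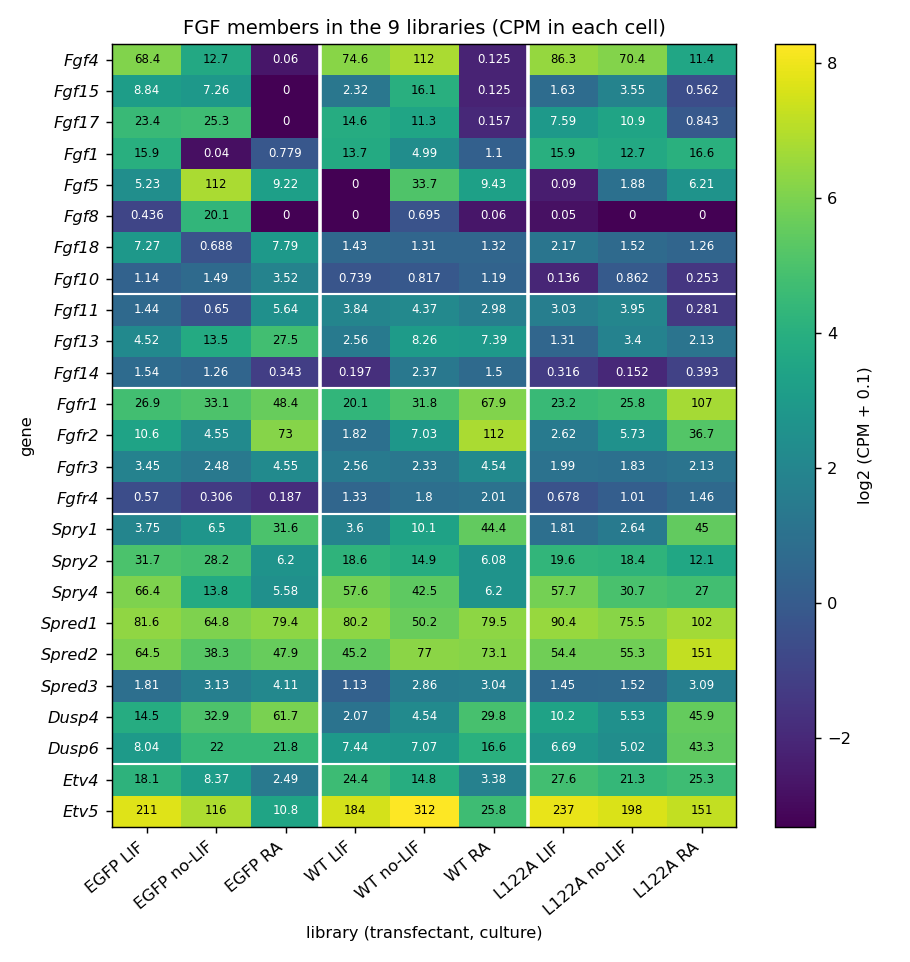
Level of 25 FGF genes (rows) in the 9 libraries (columns), with the CPM written in each cell and the colour on a log2(CPM + 0.1) scale; white lines separate gene roles and transfectants. Within their rows, Fgf4, Fgf15 and Fgf17 are darkest in the RA columns of EGFP and WT, and Spry1 and Fgfr2 are brightest in the 3 RA columns.

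The first question was what RA, added while LIF was withdrawn, did to these genes across the 3 transfectants. The ES cell ligands Fgf4, Fgf17 and Fgf15 fell, with the Sprouty genes Spry2 and Spry4 and the ETS factors Etv4 and Etv5. The receptors Fgfr1 and Fgfr2 rose, with Spry1, Dusp4, Dusp6, Spred3, Fgf5 and Fgf13. By edgeR's quasi-likelihood test with Benjamini-Hochberg adjustment over all genes, 15 of the 24 genes passed at an adjusted p below 0.05, 8 higher and 7 lower with RA. Of all 13996 genes 48.2% passed, 24.5% higher and 23.8% lower, so the number of calls alone does not set the FGF genes apart, and their median log2 fold change was 0.13 beside 0.01 for all genes. The test is on an additive model of transfectant and culture over the 9 libraries. Its p-values ask whether a difference repeats across transfectants, not across replicate cultures. RA was also set against the no-LIF cultures, which share the RA libraries with the first comparison. There 9 of the 24 passed, 4 higher and 5 lower, against 44.5% of all genes (22.6% higher and 21.9% lower). DESeq2 called 12 in this comparison, 6 higher and 6 lower, and 6840 of all 13996 genes. Scaled by total counts instead of TMM factors, the median of all genes moved to 0.39 against LIF and 0.43 against no-LIF. The FGF gene calls were then 8 higher and 4 lower against LIF, without Etv4, Etv5 and Fgf15, and 7 higher and 3 lower against no-LIF, without Etv5 and Spry2. Genes annotated as ribosomal RNA took 4.30% to 4.72% of the counts in the RA libraries and 7.86% to 11.8% in the others. With ribosomal RNA and mitochondrial genes left out, all 15 calls against LIF and all 9 against no-LIF were kept.

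**Figure D2:**
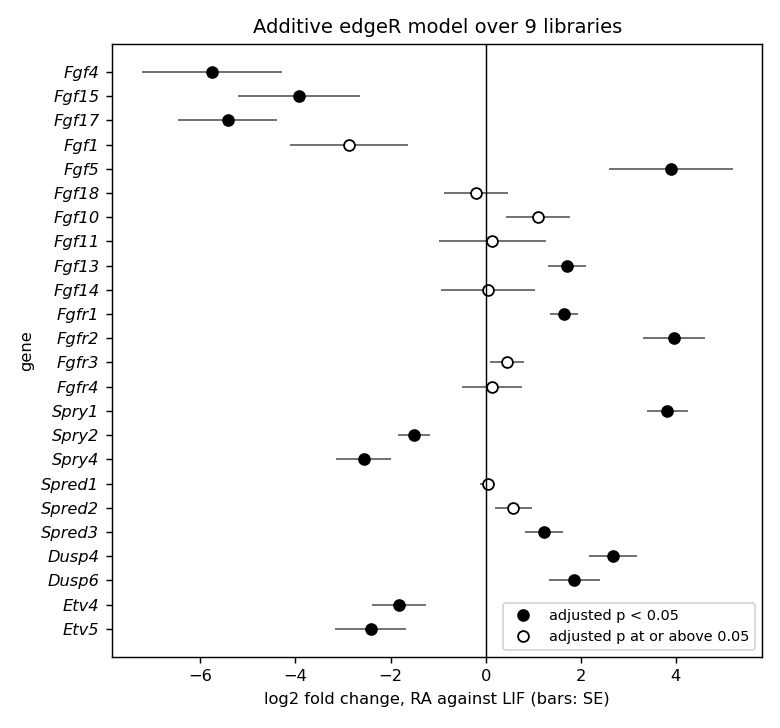
Log2 fold change of the 24 tested genes, RA against LIF, in the additive edgeR model over the 9 libraries; bars are the SE and filled points passed the adjusted p threshold of 0.05. Fgf4 and Fgf17 lie furthest to the left, at -5.76 and -5.42, and Fgfr2, Fgf5 and Spry1 furthest to the right, at 3.96, 3.90 and 3.82.

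Fgf4 (ENSMUSG00000050917, mm9 chromosome 7, 152047290 to 152051148), the autocrine ligand of ES cells, stood with LIF at 68.4, 74.6 and 86.3 CPM in EGFP, WT and L122A. Without LIF the levels were 12.7, 112 and 70.4 CPM, and with RA 0.0623, 0.125 and 11.4 CPM. All 3 RA libraries lay below every library of the other cultures, and L122A kept a level far above EGFP and WT. Fgf4 fell 54.0-fold against LIF (log2 fold change -5.76, SE 1.48, adjusted p = 0.0141 by edgeR's quasi-likelihood test) and 32.2-fold against no-LIF (-5.01, SE 1.44, adjusted p = 0.0238). The RA libraries of EGFP and WT held only 2 and 4 counts of Fgf4. The log2 fold change against LIF moved to -9.72, -7.45 and -6.65 when the L122A RA, LIF or no-LIF library was left out, and to -4.62, -4.66 and -4.68 without EGFP LIF, EGFP RA or WT RA. Against no-LIF it moved to -9.06, -6.47 and -6.00 without L122A RA, no-LIF or LIF, to -4.14 without EGFP RA and to -3.98 without WT no-LIF, and without WT RA it was -3.74 and no longer passed.

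Fgf17 (ENSMUSG00000022101, chromosome 14, 71036011 to 71042075), a ligand of the FGF8 subfamily, stood at 23.4, 14.6 and 7.59 CPM with LIF in EGFP, WT and L122A and at 25.3, 11.3 and 10.9 without LIF. With RA it had a count of 0 in EGFP, which allows up to 0.0935 CPM, and stood at 0.157 in WT and 0.843 in L122A. The RA libraries lay far below all others, and the groups did not overlap. Fgf17 fell 42.9-fold against LIF (log2 -5.42, SE 1.04, adjusted p = 0.00423 by edgeR's quasi-likelihood test) and 43.3-fold against no-LIF (-5.44, SE 1.03, adjusted p = 0.00455). It passed in all 17 alternatives of both comparisons, although its log2 fold change against LIF was -7.66 without L122A RA, -6.28 without L122A LIF and -4.42 without EGFP RA, and against no-LIF -7.76 without L122A RA and -4.45 without EGFP RA.

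Fgf15 (ENSMUSG00000031073, chromosome 7, 152082436 to 152086858), an endocrine-type FGF that embryonic neural tissue also makes, varied between the libraries without RA. It stood at 8.84, 2.32 and 1.63 CPM with LIF in EGFP, WT and L122A, at 7.26, 16.1 and 3.55 without LIF, and at 0, 0.125 and 0.562 with RA. WT without LIF was the highest library, and the RA libraries lay below all others. Fgf15 fell 15.1-fold against LIF (log2 -3.92, SE 1.28, adjusted p = 0.0354 by edgeR's quasi-likelihood test) and 32.8-fold against no-LIF (-5.04, SE 1.28, adjusted p = 0.0152). The call against LIF was lost without any 1 of the EGFP or WT libraries except WT no-LIF, with values of -2.81 without EGFP LIF and -2.77 without EGFP RA, and it was -4.86 without L122A LIF and -6.38 without L122A RA. The call against no-LIF was lost without WT RA (-4.34), and the value was -7.44, -5.93, -4.10 and -4.05 without L122A RA, L122A no-LIF, EGFP RA or WT no-LIF. Fgf3, Fgf4 and Fgf15 lie next to each other on chromosome 7 with gaps of 16948 and 31287 bases and no gene between them. Fgf3 never rose above 1.04 CPM (WT LIF) and failed the filter, so it was not tested in the main fit.

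Fgf1, an FGF without a signal peptide, stood with LIF at 15.9, 13.7 and 15.9 CPM in EGFP, WT and L122A. Without LIF the levels were 0.0382 (1 count), 4.99 and 12.7 CPM, and with RA 0.779, 1.10 and 16.6 CPM. The 3 LIF libraries were close together, the EGFP library without LIF was near 0, and no L122A library was low. In the additive model Fgf1 did not pass for RA against LIF (log2 -2.88, SE 1.24, adjusted p = 0.0885), and it passed only without L122A LIF (-3.98, adjusted p = 0.0303 by edgeR's quasi-likelihood test). Its gene overlaps Arhgap26 on the other strand and the handling of strand in the counting is not given. Arhgap26 stood between 1.95 and 9.13 CPM, with its lowest level in EGFP no-LIF.

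Fgf5 (ENSMUSG00000029337, chromosome 5, 98683202 to 98706049), a marker of the epiblast after implantation, was low with LIF and high without LIF in EGFP and WT. With LIF, EGFP had 5.23 CPM, WT 0 and L122A 0.0904 (156, 0 and 2 counts). Without LIF the levels were 112, 33.7 and 1.88 CPM, and with RA 9.22, 9.43 and 6.21 CPM. All RA libraries exceeded all LIF libraries, while the no-LIF libraries spanned the range from far above RA to below it. Fgf5 rose 14.9-fold with RA against LIF (log2 3.90, SE 1.30, adjusted p = 0.0378 by edgeR's quasi-likelihood test). This call was lost without EGFP no-LIF, L122A LIF, L122A RA (2.65), WT LIF (3.09) or WT RA, and the value was 6.95 without EGFP LIF, 5.47 without EGFP RA and 4.49 without WT no-LIF. Against no-LIF the log2 fold change was -1.14 (SE 1.16, adjusted p = 0.45).

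Fgf8 (ENSMUSG00000025219, chromosome 19, 45811287 to 45817405), a ligand of the primitive streak and of signalling centres in the embryo, was detected at 20.1 CPM (527 counts) in EGFP no-LIF. It stood at 0.436 CPM in EGFP LIF and 0.695 in WT no-LIF, and at 0.0627 or less in the other 6 libraries. It therefore failed the filter and was not tested in the main fit. With no filter on low counts, edgeR's quasi-likelihood test called Fgf8 lower with RA against no-LIF (log2 -6.93, adjusted p = 0.026). The share of all genes called there is not given. The summed level of the mesoderm and streak markers T, Mixl1, Eomes and Mesp1 was 140 CPM in EGFP no-LIF and between 2.87 and 11.4 CPM in the other 8 libraries. Whether this goes with the Fgf8 level was not tested. In bulk RNA, more cells of a type and more RNA per cell cannot be told apart.

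Fgf18 and Fgf10 were low in most libraries. Fgf18, a ligand of skeletal and lung development, stood at 7.27, 0.688 and 7.79 CPM in EGFP with LIF, without LIF and with RA, and between 1.26 and 2.17 CPM in all Nanog transfectant libraries. Fgf10, a mesenchymal ligand of FGFR2b, reached 3.52 CPM in EGFP RA and stood between 0.136 and 1.49 elsewhere. Neither passed for RA against LIF (adjusted p = 0.824 and 0.209 by edgeR's quasi-likelihood test).

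Compared per transcript length, on the FPKM scale of the authors, the makeup of the ligand pool differed between cultures. The 18 secreted-type Fgf genes, those other than Fgf11 to Fgf14, summed to 57.0, 81.9 and 13.0 FPKM in EGFP with LIF, without LIF and with RA, to 32.6, 66.0 and 7.41 in WT, and to 36.7, 30.6 and 15.8 in L122A. Fgf4 held the top place with LIF in all 3 transfectants, at 41.2%, 61.9% and 71.0% of the sum in EGFP, WT and L122A. Without LIF the top place went to Fgf5 in EGFP (53.2%), with Fgf4 at 4.98%, while Fgf4 stayed on top in WT (52.7%) and L122A (61.3%). With RA the sum was lowest in each transfectant, and the top ligand was Fgf18 in EGFP (56.6%), Fgf5 in WT (62.1%) and Fgf4 in L122A (30.0%). These shares come from 1 library each and carry no test.

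**Figure D3:**
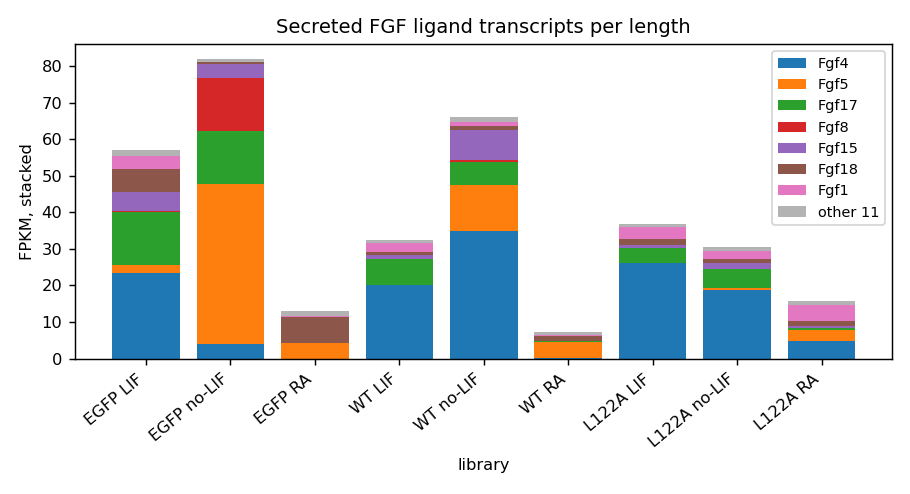
Stacked FPKM of the 18 secreted-type Fgf genes in each library, with the 7 most abundant coloured and the other 11 in grey. The bars of the 3 RA libraries are the shortest of their transfectant, and the orange Fgf5 segment is largest in EGFP no-LIF.

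Fgf11 to Fgf14 encode FGF homologous factors, which stay inside the cell and bind sodium channels instead of FGF receptors. Fgf13 (ENSMUSG00000031137, chromosome X, 56315321 to 56821248) stood at 4.52, 13.5 and 27.5 CPM in EGFP with LIF, without LIF and with RA, at 2.56, 8.26 and 7.39 in WT, and at 1.31, 3.40 and 2.13 in L122A. In each transfectant its lowest library was that with LIF, and at each culture L122A was lowest and EGFP highest. Fgf13 rose 3.25-fold with RA against LIF (log2 1.70, SE 0.40, adjusted p = 0.00897 by edgeR's quasi-likelihood test), although the libraries of the 2 cultures overlap across transfectants. Fgf11 stood at 5.64 CPM in EGFP RA and 0.281 in L122A RA, with the other libraries between 0.650 and 4.37. Fgf14 lay between 0.152 and 2.37 CPM, and neither Fgf11 nor Fgf14 passed for RA (adjusted p = 0.926 and 0.972). Fgf12 did not exceed 1.06 CPM.

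The remaining ligand genes were low. Fgf22 reached 1.42 CPM and Fgf12 its highest level in L122A no-LIF, Fgf21 reached 0.531 CPM in WT no-LIF, and Fgf2 reached 0.271 and Fgf23 0.226 CPM in L122A LIF. Fgf7, Fgf9, Fgf16 and Fgf20 did not exceed 0.156 CPM. A library with a count of 0 allows between 0.0843 and 0.152 CPM. The levels of Fgf7, Fgf9, Fgf16 and Fgf20 are of a few counts at most, whereas Fgf22 had 11 to 34 counts in every library. Fgf22 overlaps Rnf126 and Fgf2 overlaps Bbs12, both with far more counts, and reads of the overlaps could not be assigned here.

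Among the receptors, Fgfr1 and Fgfr2 rose with RA in every transfectant. Fgfr1 (ENSMUSG00000031565, chromosome 8, 26624125 to 26686186), the main FGF receptor of ES cells, stood at 26.9, 20.1 and 23.2 CPM with LIF in EGFP, WT and L122A, at 33.1, 31.8 and 25.8 without LIF, and at 48.4, 67.9 and 107 with RA. The RA libraries lay above all others, with L122A highest. Fgfr1 rose 3.11-fold against LIF (log2 1.64, SE 0.30, adjusted p = 0.00294 by edgeR's quasi-likelihood test) and 2.40-fold against no-LIF (1.26, SE 0.29, adjusted p = 0.00962). The second call was lost without L122A no-LIF.

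Fgfr2 (ENSMUSG00000030849), a receptor of epithelia and of the primitive endoderm and trophoblast, stood at 10.6, 1.82 and 2.62 CPM with LIF in EGFP, WT and L122A, at 4.55, 7.03 and 5.73 without LIF, and at 73.0, 112 and 36.7 with RA. The RA libraries were again above all others, with WT highest. Fgfr2 rose 15.6-fold against LIF (log2 3.96, SE 0.66, adjusted p = 0.00238 by edgeR's quasi-likelihood test) and 11.7-fold against no-LIF (3.55, SE 0.63, adjusted p = 0.00357). It passed in all 17 alternatives of both comparisons, with the value against LIF at 4.98 without EGFP LIF and 3.27 without WT LIF, and that against no-LIF at 2.89 without WT RA. The gene model of Fgfr2 in the count table runs over 2967582 bases and overlaps 41 other genes, so some of its counts may belong to other genes. One of these, Ate1, lies on the same strand and was also highest with RA in each transfectant. It stood at 37.1, 31.1 and 34.9 CPM with LIF in EGFP, WT and L122A. Without LIF its levels were 34.0, 24.2 and 30.9 CPM, and with RA 69.0, 44.5 and 47.6 CPM. The part of such reads in the rise of Fgfr2 was not tested.

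Fgfr3 and Fgfr4 stayed low and did not pass for RA against LIF (adjusted p = 0.322 and 0.879 by edgeR's quasi-likelihood test). Fgfr3 lay between 1.83 and 4.55 CPM and Fgfr4 between 0.187 and 2.01. On the FPKM scale the 4 receptors summed to 6.48, 5.98 and 20.02 in EGFP with LIF, without LIF and with RA, to 3.37, 6.29 and 32.6 in WT, and to 4.03, 4.28 and 27.6 in L122A. With LIF, Fgfr1 held 66.4%, 75.1% and 80.9% of this sum in EGFP, WT and L122A. With RA, Fgfr2 held 54.5% and 56.2% in EGFP and WT, and Fgfr1 held 74.4% in L122A. So the RA libraries had the highest receptor sums and the lowest ligand sums of each transfectant, and in L122A the order of Fgfr1 and Fgfr2 stayed that of the LIF culture.

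**Figure D4:**
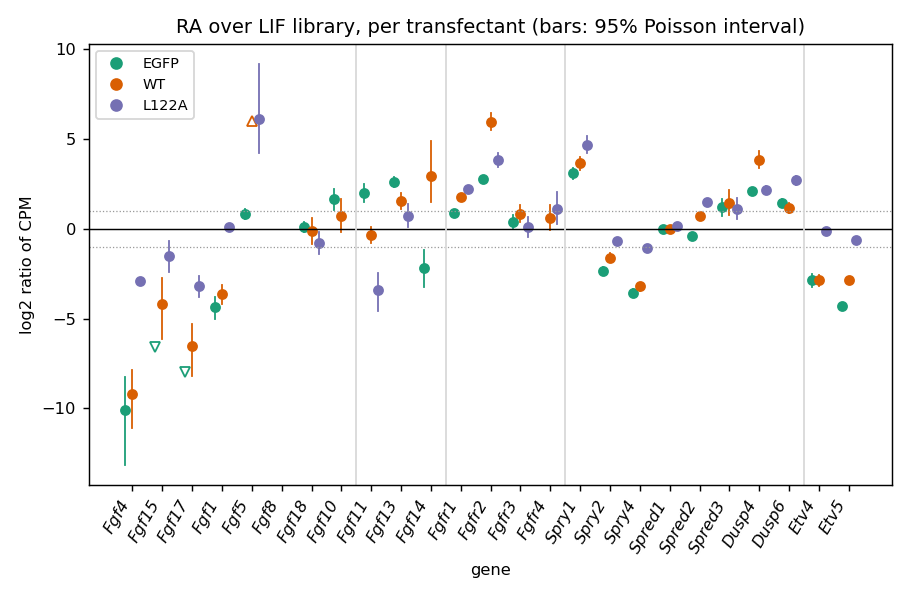
Log2 ratio of CPM, RA over LIF library, for each transfectant (colours) and gene; bars are exact 95% Poisson intervals, open triangles mark bounds from a count of 0 set to 3 counts, dotted lines mark 2-fold, and points with both libraries near 0 are left out. L122A lies nearest to 0 for Fgf4, Fgf1, Etv4 and Etv5 and furthest above 0 for Fgfr1, Spred2 and Dusp6.

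The Sprouty genes moved in opposite directions with RA. Spry1 (ENSMUSG00000037211, chromosome 3, 37538868 to 37543520) stood at 3.75, 3.60 and 1.81 CPM with LIF in EGFP, WT and L122A, at 6.496, 10.1 and 2.64 without LIF, and at 31.6, 44.4 and 45.03 with RA. The RA libraries were close together and above all others. Spry1 rose 14.1-fold against LIF (log2 3.82, SE 0.42, adjusted p = 0.000499 by edgeR's quasi-likelihood test) and 7.11-fold against no-LIF (2.83, SE 0.41, adjusted p = 0.00142), and it passed in all 17 alternatives of both comparisons.

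Spry2 (ENSMUSG00000022114, chromosome 14, 106291731 to 106296036) stood at 31.7, 18.6 and 19.6 CPM with LIF, at 28.2, 14.9 and 18.4 without LIF, and at 6.20, 6.08 and 12.1 with RA. The RA libraries were the lowest 3, with L122A between the others and the cultures without RA. Spry2 fell 2.85-fold against LIF (log2 -1.51, SE 0.33, adjusted p = 0.0065 by edgeR's quasi-likelihood test) and 2.48-fold against no-LIF (-1.31, SE 0.33, adjusted p = 0.0131). The second call was lost without WT RA.

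Spry4 stood at 66.4, 57.6 and 57.7 CPM with LIF, at 13.8, 42.5 and 30.7 without LIF, and at 5.58, 6.20 and 27.0 with RA. The LIF libraries were close together and highest, and EGFP without LIF was below L122A with RA. Spry4 fell 5.91-fold against LIF (log2 -2.56, SE 0.58, adjusted p = 0.00842 by edgeR's quasi-likelihood test) and passed in all 17 alternatives, with values of -3.36 without L122A RA and -1.95 without EGFP LIF. Against no-LIF it did not pass (-1.35, SE 0.56, adjusted p = 0.0843), but it passed without L122A RA (-2.20, adjusted p = 0.00663). By DESeq2 on all libraries Spry4 passed there (-1.36, adjusted p = 0.0133).

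Of the Spred genes, which like the Sprouty genes restrain RAS and RAF, Spred1 lay between 50.2 CPM (WT no-LIF) and 102 (L122A RA). Its log2 fold change with RA against LIF was 0.04 (SE 0.17, adjusted p = 0.855 by edgeR's quasi-likelihood test). Against no-LIF it was 0.46 (SE 0.17, adjusted p = 0.0508 by that test), with all RA libraries above all no-LIF libraries. There Spred1 passed by DESeq2 (adjusted p = 0.0463) and by limma (0.0114). By edgeR it passed with total-count scaling (0.00855) and without ribosomal RNA and mitochondrial genes (0.0499). Spred2 stood at 64.5, 45.2 and 54.4 CPM with LIF in EGFP, WT and L122A, at 38.3, 77.0 and 55.3 without LIF, and at 47.9, 73.1 and 151 with RA. L122A RA stood apart as the highest library, and the RA and LIF groups overlap. Spred2 did not pass for RA against LIF (0.58, SE 0.39, adjusted p = 0.24), although without EGFP LIF it did (1.07, adjusted p = 0.0359). Spred3 rose 2.33-fold with RA against LIF (1.22, SE 0.40, adjusted p = 0.0343), from between 1.13 and 1.81 CPM to between 3.04 and 4.11, and lost the call without any 1 of the LIF or RA libraries.

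The ERK phosphatase genes were higher with RA. Dusp4 (ENSMUSG00000031530, chromosome 8, 35870350 to 35882948), whose product acts in the nucleus, stood at 14.51, 2.07 and 10.2 CPM with LIF in EGFP, WT and L122A, at 32.9, 4.54 and 5.53 without LIF, and at 61.7, 29.8 and 45.9 with RA. All RA libraries exceeded all LIF libraries, and EGFP without LIF exceeded WT with RA. Dusp4 rose 6.38-fold against LIF (log2 2.67, SE 0.50, adjusted p = 0.00369 by edgeR's quasi-likelihood test) and 4.51-fold against no-LIF (2.17, SE 0.50, adjusted p = 0.00939), the latter lost without WT RA.

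Dusp6 (ENSMUSG00000019960, chromosome 10, 98725864 to 98727326), the cytoplasmic ERK phosphatase, stood at 8.04, 7.44 and 6.69 CPM with LIF, at 22.0, 7.07 and 5.02 without LIF, and at 21.8, 16.6 and 43.3 with RA. The LIF libraries lay close together and below all RA libraries, and EGFP without LIF was as high as EGFP with RA. Dusp6 rose 3.63-fold against LIF (log2 1.86, SE 0.54, adjusted p = 0.0218 by edgeR's quasi-likelihood test). This call was lost without EGFP LIF, L122A LIF or L122A RA, and the value without L122A RA was 1.09. Against no-LIF the log2 fold change was 1.39 (SE 0.55, adjusted p = 0.0699), and it passed without EGFP no-LIF (2.12, adjusted p = 0.0114) or EGFP RA (1.93, adjusted p = 0.0214). On all 9 libraries Dusp6 passed there by DESeq2 (adjusted p = 0.0121), by limma (0.0237) and by edgeR with total-count scaling (0.0398).

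Etv4 and Etv5, the ETS factors that ERK induces, fell with RA in the model over the 3 transfectants, with the L122A RA library far above the other RA libraries. Etv5 (ENSMUSG00000013089, chromosome 16, 22381384 to 22439691) stood at 211, 184 and 237 CPM with LIF in EGFP, WT and L122A, at 116, 312 and 198 without LIF, and at 10.8, 25.8 and 151 with RA. The RA libraries of EGFP and WT were far below the rest, and that of L122A was below all LIF libraries but above EGFP no-LIF. Etv5 fell 5.34-fold against LIF (log2 -2.42, SE 0.75, adjusted p = 0.0296 by edgeR's quasi-likelihood test) and 4.94-fold against no-LIF (-2.30, SE 0.75, adjusted p = 0.0378). The first call was lost without EGFP LIF (-1.76), EGFP RA (-1.65), WT LIF or WT RA, and the value was -3.65 without L122A RA and -3.08 without L122A LIF. The second was lost without EGFP RA (-1.64), EGFP no-LIF, WT LIF, WT no-LIF (-1.67) or WT RA, and it was -3.49 without L122A RA and -2.999 without L122A no-LIF.

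Etv4 (ENSMUSG00000017724, chromosome 11, 101631060 to 101646685) stood at 18.1, 24.4 and 27.6 CPM with LIF, at 8.37, 14.8 and 21.3 without LIF, and at 2.49, 3.38 and 25.3 with RA. The L122A RA library lay within the range of the LIF libraries, while those of EGFP and WT were lowest. Etv4 fell 3.55-fold against LIF (log2 -1.83, SE 0.56, adjusted p = 0.0279 by edgeR's quasi-likelihood test). This call was lost without EGFP LIF, EGFP RA, WT LIF or WT RA, and the value was -2.76 without L122A RA and -2.45 without L122A LIF. Against no-LIF the value was -1.03 (SE 0.55, adjusted p = 0.16), and it passed without L122A RA (-2.03, adjusted p = 0.00265).

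Within each transfectant, single RA and LIF libraries were compared by a fold of at least 2, where the higher of the pair reached 5 CPM, which carries no test. In EGFP 14 of 19 FGF genes at that level passed 2-fold, 6 higher and 8 lower, where 40.4% of all genes did. In WT 14 of 16 did, 7 higher and 7 lower, against 47.3% of all genes. In L122A 10 of 15 did, 7 higher and 3 lower, against 37.9%. The 3 lower genes in L122A were Fgf4 (7.55-fold, 95% Poisson interval 6.78 to 8.42), Fgf17 (9.01-fold, 6.08 to 13.8) and Spry4 (2.14-fold, 1.96 to 2.33). Etv4, Etv5, Fgf1 and Spry2, each past 2-fold lower in EGFP and in WT, were within 2-fold there. Poisson intervals cover counting error only.

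Between the 2 Nanog transfectants with RA, 9 of 15 FGF genes differed by 2-fold, against 7.33% of all genes. Higher in L122A than in WT were Fgf4 (91.2-fold, interval 35.4 to 336), Fgf1 (15.2-fold, 10.8 to 22.0), Etv4 (7.49-fold, 6.13 to 9.23), Etv5 (5.83-fold, 5.42 to 6.28), Spry4 (4.35-fold, 3.73 to 5.10), Dusp6 (2.61-fold, 2.36 to 2.89) and Spred2 (2.07-fold, 1.97 to 2.17). Lower were Fgf13 (3.46-fold, 2.66 to 4.55) and Fgfr2 (3.06-fold, 2.88 to 3.27). These are 2 libraries, so the counts compare libraries and not conditions. The ES cell markers summed to 469 CPM in the L122A RA library and 59.8 in that of WT, and the primitive and parietal endoderm markers to 121.9 and 316. Their part in these differences was not tested.

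Whether the response to RA differed between the Nanog transfectants and EGFP was tested with WT and L122A as 2 libraries of a Nanog class. Of the 24 FGF genes 0 passed by edgeR's quasi-likelihood test with Benjamini-Hochberg adjustment, with 5 at an unadjusted p below 0.05, and 1 passed by DESeq2 (Fgf17). With no filter on low counts 10 passed by edgeR, and the share of all genes there is not given. Of all 13996 genes 0.00714% passed by edgeR with the filter, and DESeq2 called 266. The difference in log2 response was 7.86 for Fgf17 (SE 2.17, adjusted p = 0.311), 8.41 for Fgf15 (SE 2.63, adjusted p = 0.357), 6.21 for Fgf4 (SE 3.27, adjusted p = 0.523) and 3.03 for Etv5 (SE 1.32, adjusted p = 0.466). The values for Fgf15 and Fgf17 rest on a count of 0 in EGFP RA and depend on the prior count. Without WT RA, L122A RA is the lone RA library of its class and is assumed to vary like the other groups, since it adds nothing to the estimate of spread. In that fit 7 passed: Fgf4, Fgf17, Fgf1, Etv4, Etv5 and Spry4 with a smaller fall than in EGFP, and Fgf11 in the opposite direction. Of these, the smallest adjusted p was that of Fgf4 (7.203, adjusted p = 0.000914 by edgeR's quasi-likelihood test).

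The next question was what LIF withdrawal alone did. By edgeR's quasi-likelihood test with Benjamini-Hochberg adjustment 0 of the 24 FGF genes passed, with 4 at an unadjusted p below 0.05, and DESeq2 called 2 higher (Fgf5 and Fgf13). Of all 13996 genes 0.0714% passed by edgeR, and DESeq2 called 278. The log2 fold change was 5.04 for Fgf5 (SE 1.25, adjusted p = 0.315), 1.56 for Fgf13 (SE 0.40, adjusted p = 0.316), 0.99 for Spry1 and -0.42 for Spred1 (both adjusted p = 0.513), each in the direction seen in all 3 transfectants. The comparison shares the LIF libraries with that of RA against LIF.

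In single libraries, more FGF genes passed 2-fold in EGFP than in L122A. In EGFP 11 of 19 FGF genes passed 2-fold, against 13.9% of all genes. Fgf8 was 46.2-fold higher without LIF (95% Poisson interval 26.8 to 87.4), Fgf5 21.5-fold (18.3 to 25.4), Fgf13 2.99-fold (2.45 to 3.67), Dusp6 2.74-fold (2.35 to 3.20) and Dusp4 2.27-fold (2.02 to 2.55). Lower were Fgf1 (1 count against 476; 417-fold, 95% interval 74.5 to 16519), Fgf18 (10.6-fold, 6.53 to 18.2), Fgf4 (5.38-fold, 4.79 to 6.06), Spry4 (4.83-fold, 4.31 to 5.42), Fgfr2 (2.34-fold, 1.89 to 2.91) and Etv4 (2.17-fold, 1.85 to 2.55). EGFP without LIF thus had less of the ES cell ligand Fgf4 and more of Fgf5 and Fgf8, and its ES cell markers summed to 284 CPM against 1156 with LIF.

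In WT 6 of 16 genes passed, against 10.3% of all genes. Fgf5 was at least 228-fold higher without LIF, taking the count of 0 in the LIF library as 3 counts. Fgf15 was 6.97-fold higher (interval 5.14 to 9.64), Fgfr2 3.85-fold (2.69 to 5.66), Fgf13 3.22-fold (2.36 to 4.46) and Spry1 2.81-fold (2.15 to 3.69), and Fgf1 was 2.74-fold lower (2.21 to 3.42). Its primed epiblast markers Otx2, Pou3f1, Dnmt3b and Sox3 summed to 583 CPM without LIF and 51.4 with LIF. The same list summed to 282 and 166 CPM in EGFP and to 111 and 55.6 in L122A. Dnmt3b was most of each sum. Without LIF, Dnmt3b (426 and 223 CPM) and Otx2 (139 and 31.4 CPM) were higher in WT than in EGFP. Pou3f1 was lower in WT (17.6 and 26.8 CPM), as was Sox3, at 0.245 and 0.688 CPM. The part of these markers in the Fgf5 and Fgf15 levels was not tested. In L122A 1 of 13 passed, against 6.09% of all genes: Fgfr2 was 2.19-fold higher (1.58 to 3.05). This count was 2 with total-count scaling and 6 with a minimum of 1 CPM in place of 5. The share of all genes under these settings is not given, so the 6.09% does not apply to them. The difference in this response between the Nanog class and EGFP was tested by edgeR. It called 0 of 24 FGF genes, with 3 at an unadjusted p below 0.05, and 0% of all genes. DESeq2 called 0 FGF genes and 121 of all 13996 genes. With no filter on low counts edgeR called 4: Fgf1, Fgf4, Fgf5 and Fgfr2, and the share of all genes there is not given. Without WT RA or L122A RA, which leaves 1 RA library in the Nanog class, the difference for Fgf1 was 7.79 in log2 in either fit. The share of all genes called in these fits is not given.

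**Figure D5:**
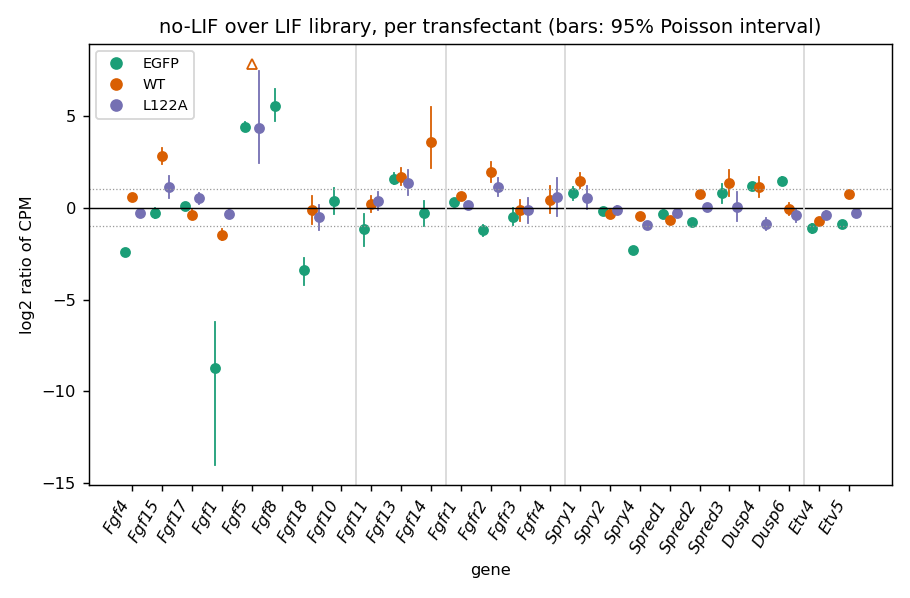
Log2 ratio of CPM, no-LIF over LIF library, for each transfectant (colours) and gene; bars are exact 95% Poisson intervals, the open triangle is a bound from a count of 0 set to 3 counts, dotted lines mark 2-fold, and points with both libraries near 0 are left out. The L122A points lie between the dotted lines for most genes, while the EGFP points of Fgf1, Fgf18, Fgf4 and Spry4 lie below it and those of Fgf5 and Fgf8 above it.

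The last question was how the transfectants differed across cultures. In the additive model Fgf13 was 5.77-fold lower in L122A than in EGFP (log2 -2.53, SE 0.41, adjusted p = 0.0223 by edgeR's quasi-likelihood test), lower in 3 of 3 cultures and with no overlap of the 2 sets of libraries. It was the 1 FGF gene of 24 that passed, where 2.88% of all genes did. The call was lost without L122A RA, L122A no-LIF or WT LIF. DESeq2 called 4, adding Etv4 higher and Fgf10 and Fgf5 lower in L122A. Of all 13996 genes it called 1438. Of the fibroblast markers, 4 of 5 tested (Col1a1, Col1a2, Col3a1 and Dcn) passed as lower in L122A. The fifth, Thy1, named after its values were seen, stood higher in L122A than in EGFP with LIF (11.7 and 1.37 CPM) and without LIF (4.01 and 2.25 CPM), and lower with RA (0.421 and 1.96 CPM). Thy1 included, the 7 markers summed to 27.2, 25.9 and 394 CPM in EGFP with LIF, without LIF and with RA against 15.8, 6.95 and 14.6 in L122A, with Lum at 0 in 8 of the 9 libraries. Of the neural markers, which summed to between 35.8 and 193 CPM in EGFP and between 14.0 and 47.9 in L122A, 2 were tested. Nes passed as lower in L122A and Pax6 did not pass. With LIF, without LIF and with RA, Pax6 stood at 14.7, 3.48 and 6.26 CPM in EGFP. In L122A it stood at 10.6, 11.2 and 9.35 CPM. Sox1 and Neurog2 stood at 0.169 CPM or less in these libraries. The part of either list in the Fgf13 difference was not tested.

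WT differed from EGFP in 0 of 24 FGF genes by edgeR, with 4 at an unadjusted p below 0.05, against 0.322% of all genes. DESeq2 called 609 of all 13996 genes and 1 FGF gene, Dusp4. The log2 fold change of Dusp4 by edgeR was -2.22 (SE 0.50, adjusted p = 0.119 by the quasi-likelihood test, and 0.0414 with a value of -2.70 without EGFP RA). L122A differed from WT in 0 of 24 by edgeR, with 2 at an unadjusted p below 0.05, against 0% of all genes. By DESeq2 0 differed, where 51 of all 13996 genes did.

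In single cultures these differences were as follows. With LIF, 5 of 16 FGF genes were at least 2-fold lower in WT than in EGFP and 0 higher, against 10.4% of all genes in either direction. They were Fgf5 (at least 35.3-fold), Dusp4 (7.01-fold, interval 5.10 to 9.86), Fgfr2 (5.82-fold, 4.13 to 8.42), Fgf18 (5.09-fold, 3.44 to 7.77) and Fgf15 (3.82-fold, 2.79 to 5.32). With a minimum of 1 CPM 8 passed, and the share of all genes at that minimum is not given. Without LIF 10 of 17 passed, against 16.2% of all genes. Higher in WT were Fgf4 (8.83-fold, 7.88 to 9.92), Spry4 (3.09-fold, 2.74 to 3.49), Etv5 (2.68-fold, 2.57 to 2.80), Fgf15 (2.22-fold, 1.87 to 2.66) and Spred2 (2.01-fold, 1.86 to 2.17). Lower in WT were Fgf8 (29.0-fold, 17.9 to 50.1), Dusp4 (7.26-fold, 5.95 to 8.93), Fgf5 (3.33-fold, 3.08 to 3.60), Dusp6 (3.12-fold, 2.63 to 3.72) and Fgf17 (2.24-fold, 1.94 to 2.59). The WT library without LIF thus held more Fgf4 and less Fgf8 than that of EGFP. With RA 4 of 14 passed, against 11.4%: Etv5 was 2.40-fold higher in WT (2.11 to 2.73), and Fgf18 (5.92-fold), Fgf13 (3.72-fold) and Dusp4 (2.07-fold) were lower. With a minimum of 1 CPM 7 passed, again with no share of all genes at that minimum.

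L122A and WT were closer to each other outside RA. With LIF 1 of 12 FGF genes passed, against 3.66% of all genes, and this was Dusp4, 4.91-fold higher in L122A (interval 3.52 to 7.003). Without LIF 5 of 17 passed, against 8.14%: Fgf5 was 17.98-fold lower in L122A (12.9 to 25.7), Fgf15 4.55-fold (3.52 to 5.95), Spry1 3.83-fold (2.83 to 5.27) and Fgf13 2.43-fold (1.84 to 3.25), and Fgf1 was 2.55-fold higher (2.05 to 3.19). With a minimum of 1 CPM 8 passed without LIF, and the share of all genes at that minimum is not given.

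Other genes of the pathway were read from 3 lists written from general knowledge. Of 27 FGF co-receptors, binding proteins and heparan sulphate genes, 24 were tested, and with RA against LIF 17 rose and 1 fell by edgeR's quasi-likelihood test (median log2 fold change 1.32). The glypicans Gpc6 (7.02) and Gpc4 (3.14) and the basement membrane proteoglycan perlecan, Hspg2 (3.10), rose most, and the sulphatase Sulf1, which trims heparan sulphate, fell (-0.87). Without WT LIF 10 rose. Against no-LIF 15 rose and 2 fell. Of 23 receptor adaptors and RAS-ERK cascade genes, all tested, 11 rose and 2 fell (median 0.50), led by the RAS activator Sos2 (2.54), the RAS inactivator Nf1 (1.87) and the receptor substrate Frs2 (1.42), while Hras1 (-0.78) and Map2k1 (-0.56) fell. Without L122A LIF the median was 0.28, and no gene of this list was called lower without L122A LIF, WT LIF or WT RA. Against no-LIF 11 rose and 2 fell, and 6 or 7 rose without EGFP no-LIF, L122A RA, L122A no-LIF or WT RA. Of 20 other ERK-responsive and feedback genes, 17 were tested, 11 rose and 1 fell (median 1.66). Fos (4.16), the phosphatase gene Dusp5 (3.72) and Phlda1 (3.39) rose most, and the cyclin gene Ccnd1 fell (-2.53). Against no-LIF 8 rose and 1 fell. Over all genes 24.5% rose with RA against LIF and the median was 0.01. Scaled by total counts the median of all genes moved to 0.39 and no gene of the first 2 lists was called lower.

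No gene of these lists passed for LIF withdrawal, and none for WT against EGFP or L122A against WT. For L122A against EGFP Hspg2 (log2 -1.56, adjusted p = 0.0185 by edgeR's quasi-likelihood test) and the phosphatase gene Dusp1 (-2.17, adjusted p = 0.00941) were lower. The endoderm markers Gata4, Gata6, Sox7, Sox17, Dab2, Pdgfra and Lamb1 all rose with RA, from sums between 25.8 and 55.9 CPM with LIF to 254, 316 and 121.9 CPM in EGFP, WT and L122A. The fibroblast markers summed to 394, 46.2 and 14.6 CPM in the RA libraries. Trophectoderm markers summed to 45.8, 57.1 and 25.7 CPM with RA and to 7.80 or less in the other libraries, with Cdx2 at 0 in EGFP and WT with RA. Nearly all of the RA sums was Gata3, at 44.0, 55.3 and 24.4 CPM, and Elf5 and Hand1 stood at 1.75 CPM or less with RA. The part of these cell types in the rise of Fgfr2, Spry1, Dusp4 and the pathway genes was not tested.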

How the data were processed

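RNA was measured in 9 libraries of RF8 mouse ES cells, 1 for each of 3 transfectants in 3 cultures. Per the labels' protocols, total RNA was extracted with a column kit and made into Illumina libraries. The submitters' processing notes list TopHat2 2.0.11 and the mm9 build, per the labels. Not given in the sources used here are the counting program, its handling of strand and of overlapping genes, and any pooling.

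The deposited table holds raw read counts per gene and, per the file headers, FPKM values computed by the authors. FPKM equalled the count divided by feature length and library total, within a small tolerance, in 100% of the values checked, so it carries no TMM scaling. Only the higher FPKM values were checked, and many values of the FGF genes lie below them. Counts were used for all tests, and FPKM was used to compare levels between genes. No per-sample column was left out (0 other columns).

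The genes were found by name. The members, gene lists, tests and named-gene rule were chosen with earlier results of these data known: all members may be named, and of each pathway or marker list the 3 called genes with the largest change each way. The filter kept genes that reached 1 CPM in 3 or more of the 9 libraries, giving 13996 of 25920 genes with any count. The count test was edgeR 4.0.16 (quasi-likelihood, robust, TMM factors) in R 4.3.3, on an additive model of transfectant and culture (4 residual degrees of freedom). A second model of class (EGFP against both Nanog transfectants) by culture had 3. A call is a Benjamini-Hochberg adjusted p below 0.05. The SE is the log2 fold change divided by the square root of the F statistic. Ratios between 2 libraries use TMM-scaled CPM and exact 95% Poisson intervals (counting error alone), with a count of 0 set to a floor of 3 counts. Alternatives were DESeq2 1.42.0, limma 3.58.1 on log2(FPKM + 1), other scalings and filters, other model terms, and leaving out each library. Scripts were tested on simulated counts. Figures used matplotlib 3.10.9.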

Additional observations from a re-analysis of the deposited data

Results flagged for a closer look

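The response of Fgfr2 to LIF withdrawal went in opposite directions in the transfectants. Its level without LIF was 2.34-fold lower than with LIF in EGFP (10.6 and 4.55 CPM), 3.85-fold higher in WT (1.82 and 7.03 CPM) and 2.19-fold higher in L122A (2.62 and 5.73 CPM). The mean log2 ratio of WT and L122A minus that of EGFP was 2.76. This rule of opposite directions did not test the difference. In the class model over all genes it was 2.74 (SE 0.91, adjusted p = 0.501 by edgeR's quasi-likelihood test), so it did not pass. With no filter on low counts it passed, at 2.74 with an adjusted p of 0.000186 by edgeR's quasi-likelihood test. The gene model of Fgfr2 overlaps 41 other genes, and the part of their reads in this difference was not tested.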

How the results depend on the processing

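No paired analysis was possible because each combination of transfectant and culture has 1 library, all numbered replicate 1, so the numbers pair nothing. The term for transfectant in the model does compare cultures within each transfectant. The first limit is therefore the lack of replicate cultures. No FGF gene called by edgeR changed direction under any alternative run. For RA against LIF, where 15 genes passed, 9 passed with no filter on low counts and 9 with no term for transfectant, the latter without Dusp4, Etv4, Etv5, Fgf13, Fgf4 and Fgf5. Spry1, Spry2, Spry4, Fgf17, Fgfr1 and Fgfr2 passed in all 17 alternatives of that comparison, and Spry1, Fgf17 and Fgfr2 in all 17 of RA against no-LIF. Leaving out 1 library at a time gave 4 to 11 calls for RA against no-LIF (4 without WT RA), 0 to 2 for L122A against EGFP and 0 to 1 for WT against EGFP. The shares of all genes called in these fits are not given. For the differences in response, leaving out a Nanog library leaves 1 in its class and culture, so counts of calls are not given. For L122A against EGFP, DESeq2 called 4 genes, and 0 passed with no term for culture or with only the 2 transfectants in the model. DESeq2 called 2 genes for no-LIF against LIF, 1 for WT against EGFP and 1 for the difference in RA response. Of all 13996 genes it called 1438, 278, 609 and 266 in these 4 comparisons. With no filter, 10 genes passed for the difference in RA response and 4 for that in no-LIF response (Fgf1, Fgf4, Fgf5 and Fgfr2). The causes were not tested. Of the single-library counts, total-count scaling gave 2 genes for L122A no-LIF against LIF. A minimum of 1 CPM in place of 5 gave 6 there, 8 for WT against EGFP with LIF, 7 with RA, and 8 for L122A against WT without LIF. Shares of all genes under total-count scaling or the 1 CPM minimum are not given, so these counts have no background beside them. The counts of the 3 pathway lists under these alternatives were added after seeing the data. They ranged over the left-out libraries from 10 to 18 higher calls for co-receptors, 9 to 11 for adaptors and 8 to 11 for ERK-responsive genes (RA against LIF), and the last was 7 with no term for transfectant. The depth limits the lowest genes: a count of 0 allows up to 0.0843 to 0.152 CPM, so levels of Fgf2, Fgf6, Fgf7, Fgf9, Fgf16, Fgf20, Fgf23 and Spry3 are at the limit of detection.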

Other observations

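Among other genes of the pathway lists, 4 had levels that stood apart in some libraries. They were picked after their values were seen, and the levels of single libraries carry no test. Klb, the beta-klotho co-receptor of the endocrine FGFs, stood at 14.7 CPM in WT with RA and at 0.467 CPM or less in the other 8 libraries. Klb failed the filter and was not tested in the main fit. Flrt3, a membrane protein that binds FGF receptors, stood at 52.8, 161 and 29.6 CPM with RA in EGFP, WT and L122A and at 14.4 CPM or less in the other 6. Flrt3 passed as higher with RA against LIF (log2 3.04, adjusted p = 0.00933 by edgeR's quasi-likelihood test) and against no-LIF (adjusted p = 0.00638). Fgfbp1, a secreted carrier of FGFs, was highest in EGFP without LIF (68.4 CPM) and stood at 0.280, 2.04 and 4.47 CPM in the RA libraries of EGFP, WT and L122A. By the same test Fgfbp1 passed as lower with RA against no-LIF (log2 -3.41, adjusted p = 0.0341) but did not pass against LIF. Il17rd (Sef), an inhibitor of FGF signalling, was highest in L122A with RA at 89.3 CPM, with the other libraries between 13.0 and 50.2 CPM. Il17rd passed as higher with RA against LIF by that test (log2 1.68, adjusted p = 0.0376) but did not pass against no-LIF.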
